A study of Homo sapiens with 16 samples.

Results

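Mucins are large glycoproteins whose long serine- and threonine-rich stretches carry dense O-linked sugars. They form the gels that cover airway, stomach and gut, and the membrane-bound members coat the surface of epithelial cells. MUC5AC, MUC5B, MUC2 and MUC6 are secreted and gel-forming, and they lie side by side in a single cluster. MUC1, MUC16 and MUC20 are anchored in the plasma membrane. In airway epithelium MUC5AC is the mucin of goblet cells that is induced by irritants, by ligands of the EGF receptor and by phorbol esters. Blood-forming cells are not a usual site of the gel-forming mucins.

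These 7 genes were followed among 35052 genes in K562, an established human leukaemia line of wild-type genotype. The cells were exposed to 25 nM phorbol 12-myristate 13-acetate (PMA), a phorbol ester that activates protein kinase C and moves K562 towards a megakaryocyte-like state, and the medium was renewed after 24 and 48 h. Libraries of ribosome-depleted total RNA were sequenced before PMA (0 h), early after it (0.5 and 1.5 h), at 3 and 6 h, and late (24 h, 48 h and 72 h), with 2 libraries at each time and 16 in all. The labels do not say whether the 2 libraries of a time point came from separate cultures, so p-values measure the spread between these libraries, which may be technical. The 0 h libraries are the only ones without PMA exposure, and no series of untreated cells runs beside the later times, so time in culture and PMA cannot be told apart. The set was chosen on the summed read counts of these libraries, for the rise of MUC5AC from close to 0, so all values of MUC5AC are a description without a test.

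Depth was 27285773 to 54056289 estimated reads per library. Levels are reported as CPM, counts per 1e6 reads after scaling between libraries (± is the SD of the 2 libraries), and, where genes are compared with each other, as TPM, which also divides by transcript length. A floor of 3 reads per library corresponded to 0.0622 to 0.128 CPM, and intervals and floors cover counting error only. Of the 7 genes, 6 passed the filter on low counts and were tested among 17559 genes, and MUC5B did not pass. MUC2, MUC6 and MUC16 passed only through the times at which they were high and so had to differ from 0 h, where they had no reads, so their differences from 0 h are given as lower bounds with no p. Differences are log2 fold changes from edgeR's quasi-likelihood test with their standard error (SE), and a gene was called where p, adjusted by Benjamini and Hochberg over all tested genes, was under 0.05. The labelled cell type was checked against marker genes. All 11 erythroid genes listed for untreated K562, HBG2 (a fetal globin) among them, were above 3 reads in both libraries at all 8 times.

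The repeated stretches that carry the sugars are also what makes these genes hard to count. The most frequent long repeat of 3 members is shown because it marks where short reads cannot be placed within the transcript.
MUC5AC, 24 bases: ctcctacaaccagcacaacctctg
MUC1, 60 bases: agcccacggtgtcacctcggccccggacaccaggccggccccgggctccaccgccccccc
MUC2, 69 bases: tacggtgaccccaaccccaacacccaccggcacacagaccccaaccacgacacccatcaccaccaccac
The MUC5AC unit occurred 16 times in transcript MUC5AC-201, all in coding sequence of exon 31 of 49, with its first copy at chr11:1185245-1185268 on the plus strand of GRCh38. The MUC1 unit occurred 19 times in MUC1-223, in coding sequence, with its first copy at chr1:155191821-155191880 on the minus strand. The MUC2 unit occurred 9 times in MUC2-201, in exon 30 of 49, with its first copy at chr11:1096165-1096233 on the plus strand, and GENCODE 29 annotates no coding sequence for that transcript. Of all 31-base words of a transcript, 30.9% recurred inside MUC5AC-201, 48.2% inside MUC1-223, 25.7% inside MUC2-201 and 3.61% inside MUC16-201. Sharing with other genes was small for the same transcripts: MUC5AC-201 shared 127 words (0.73%) with MUC5B, MUC1-223 shared 18 with an overlapping gene model, and MUC2-201 and MUC16-201 shared none. Reads from these repeats can therefore be divided between transcripts of 1 gene but, for these 4, seldom between genes. MUC20 differed, since 65.0% of the words of its MUC20-203 model occurred in other genes, 937 of them in the pseudogene MUC20P1. The GENCODE 29 model of MUC20-203 is 2463 bases long and the deposited transcript is 5053 bases, so that share describes the shorter model.

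MUC5AC (ENSG00000215182, chr11:1157953-1201138, plus strand) was nearly silent before PMA and reached its highest level at 6 h. By 72 h it had fallen to 0.594% of that level, still above 0 h. The 0 h libraries held 1 and 0 reads, those of 0.5 h 3 and 0, and those of 1.5 h 22 and 13. The 3 h libraries held 2125 and 2134 reads, those of 6 h 2169 and 3367. The 24 h libraries held 494 and 796 reads, those of 48 h 81 and 112, and those of 72 h 16 and 26. All libraries from 1.5 h onward lay above both 0 h libraries, and the 3 and 6 h libraries lay above those of every other time.

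The mean level of MUC5AC was 0.0153 ± 0.0217 CPM (SD, n = 2) before PMA. It reached 63.9 ± 8.02 CPM by 3 h and 106 ± 18.8 CPM by 6 h. With a single read in both 0 h libraries, the ratio of summed reads to 0 h was 6819 at 6 h, with an exact 95% interval from 1223 to 269380. At 72 h the ratio was 39.4 (6.69 to 1592). Its peak was high in reads but moderate per length. The CPM at 6 h exceeded that of 86.7% of tested genes, whereas the TPM of 7.04 ± 0.672 (SD, n = 2) exceeded that of 48.6%.

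Between treated times MUC5AC first gained and then lost reads. The fitted difference was 0.73 log2 units from 3 to 6 h (SE 0.19), and leaving out 1 library moved it between 0.55 and 0.92. The 24 h libraries differed from those of 6 h by -2.71 (SE 0.20), and those of 48 h from those of 24 h by -2.53 (SE 0.23). The last difference, between 48 and 72 h, was -2.17 (SE 0.32) and rests on few reads. Both libraries of each time from 24 h lay below both libraries of the time before. Of the mean at 6 h, 15.3% was left at 24 h, 2.64% at 48 h and 0.594% at 72 h.

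**Figure D1:**
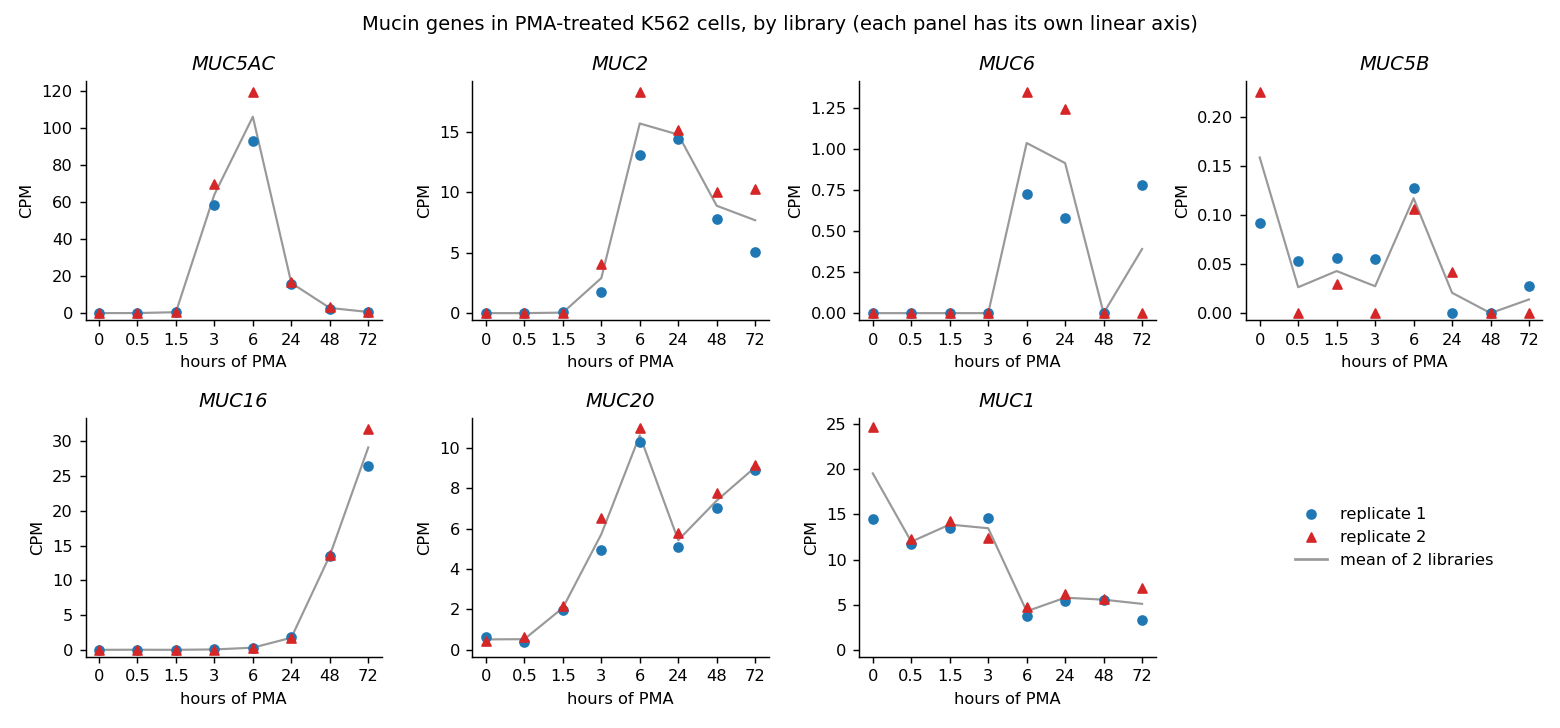
CPM (linear axes, 1 per panel) of the 7 mucin genes at 8 times of PMA treatment, the times evenly spaced. Circles are replicate 1, triangles replicate 2 and grey lines the mean of the 2 libraries. MUC5AC peaks at 106 CPM at 6 h, MUC2 stays up after 6 h, MUC16 is highest at 72 h, MUC20 rises early, MUC1 falls between 3 and 6 h, MUC5B stays close to the floor, and MUC6 has no reads in 11 libraries.

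Of the 6 other mucins, the number called against 0 h was 0 at 0.5 h, where 0.171% of all tested genes were called, 1 at 1.5 h (17.1% of all) and 3 at 3 h (42% of all). At 6 h it was 5 (57.2% of all genes called), with MUC2, MUC6, MUC16 and MUC20 higher and MUC1 lower, where 27.8% of genes were called higher and 29.4% lower. It was 5 at 24 h (58.3% of all), 4 at 48 h (54.3% of all) and 5 at 72 h (58.6% of all). At 72 h the same 4 were higher and MUC1 lower, beside 31.7% of all genes called higher and 26.9% lower. These counts support nothing on the mucins as a group, because MUC2, MUC6 and MUC16 entered the test only through the times at which they were high and because most genes were called from 6 h onward. A call as such does not set the mucins apart, and their size and timing are described instead.

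MUC2 (ENSG00000198788, chr11:1074875-1110511), the gel-forming mucin of the intestine, lies 47.4 kb upstream of MUC5AC on the same strand. It went from no reads at 0 h to 307 and 517 at 6 h. At 3 h it had 18.5% of its highest mean where MUC5AC had 60.4%. Both libraries held 0 reads at 0 and 0.5 h, and at 1.5 h 1 library had 2.8 and the other none. The 3 h libraries held 64.5 and 124 reads, those of 6 h 307 and 517, and those of 24 h 446 and 731. The 48 h libraries held 255 and 359 reads and those of 72 h 183 and 331. From 3 h onward no library overlapped with those of the first 3 times.

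Measured against the floor of 3 reads, mean MUC2 CPM was at least 30.7-fold higher than at 0 h at 3 h, at least 166-fold at 6 h and at least 81.5-fold at 72 h. From 3 to 6 h MUC2 rose by 2.45 log2 units (SE 0.42, edgeR adjusted p = 5.63e-04), a step at which 41.2% of all genes were called. No later step passed the test: the difference was -0.09 (SE 0.38, adjusted p = 0.855) from 6 to 24 h and -0.73 (SE 0.38, adjusted p = 0.244) from 24 to 48 h. The latter difference was called under 3 alternatives. It was -0.73 with no filter on low counts (edgeR adjusted p = 0.00618) and -0.71 with only the libraries of those 2 times (adjusted p = 0.0114). With MUC2-201 counted alone it was -0.94 (edgeR adjusted p = 0.0254). Mean MUC2 at 24 h was 94.1% of its mean at 6 h, where MUC5AC had 15.3%.

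The balance of the 2 gel-forming mucins turned over between 6 and 48 h. Per length and summed over transcripts, the TPM of MUC2 was 0.042 and 0.129 times that of MUC5AC in the 2 libraries of 3 h, and 0.196 and 0.293 times at 6 h. By 24 h it was 1.32 and 1.74 times, by 48 h 4.49 and 7.60 times, and by 72 h 15.8 and 25.6 times. These sums include MUC2-202, a shorter model in the repeat region. From MUC2-201 alone the ratio was 0.042 and 0.052 (3 h), 0.196 and 0.165 (6 h), 1.21 and 0.997 (24 h), 4.27 and 2.58 (48 h), and 15.8 and 12.9 (72 h). On both scales MUC5AC was the more abundant in all 4 libraries of 3 and 6 h and MUC2 in all 4 of 48 and 72 h, while at 24 h the pair was about level by MUC2-201 alone.

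**Figure D2:**
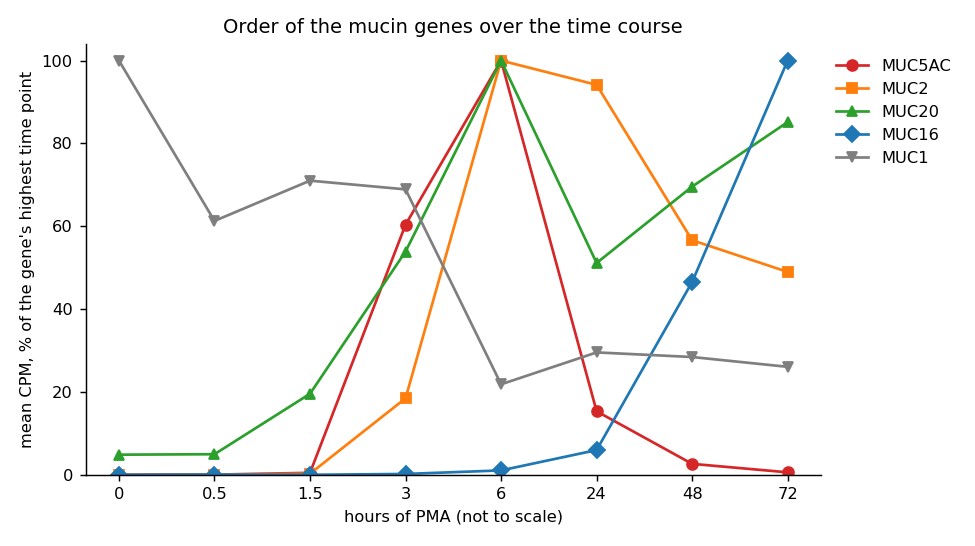
Mean CPM of 2 libraries as a percentage of each gene's own highest mean, for 5 mucin genes at 8 times (evenly spaced). At 24 h MUC5AC is at 15.3% and MUC2 at 94.1% of its highest mean, while MUC16 is at 5.97% and reaches its highest mean at 72 h.

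Transcript estimates split MUC2 reads in a way that followed the replicate number. MUC2-202, a 4845-base pseudogene model lying within the repeat region (63.5% of its 31-base words recurred inside it), received 0 to 3.3% of MUC2 reads in the first library of the 5 times from 3 h. In the second libraries it received 21.6 to 41.9%. The gap between transcript length and effective length, which reflects the fragment length, was 213 to 221 bases in the former libraries and 229 to 237 in the latter, and its part in the split was not tested. Reads on MUC2-201 alone were 307 and 401 in the 6 h libraries, 183 and 242 in the 72 h libraries.

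MUC6 (ENSG00000184956, chr11:1012821-1036706, minus strand), a gel-forming mucin of the stomach, lies 38.2 kb from MUC2 and is read in the opposite direction. It had no reads in 11 of the 16 libraries. Reads were 0 in all 8 libraries up to 3 h, then 17.4 and 37.8 (6 h), 18.4 and 60.1 (24 h), 0 and 0 (48 h) and 27.5 and 0 (72 h). Detection was thus seen in both libraries at 6 and 24 h, and the 72 h libraries disagreed. Against the floor of 3 reads, mean CPM was at least 10.98-fold higher than at 0 h at 6 h and at least 9.68-fold at 24 h.

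MUC5B (ENSG00000117983, chr11:1223066-1262172), the main constitutive mucin of airway glands, lies 21.9 kb downstream of MUC5AC on the same strand. It was not induced to a detectable level. It had 3 and 7 reads at 0 h and at most 3 in each of the 14 treated libraries, so 15 of 16 libraries were at or under the floor. At 6 h, when MUC5AC had 2169 and 3367 reads, MUC5B had 3 in each library.

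The genes that flank the cluster were expressed throughout. CHID1, which encodes a chitinase-domain protein, was at 56.2 ± 10.95 CPM before PMA and 33.2 ± 0.989 CPM after 6 h, a difference of -0.76 (SE 0.14, edgeR adjusted p = 3.61e-04). AP2A2, a subunit of the clathrin adaptor AP-2, rose by 0.61 (SE 0.14, edgeR adjusted p = 0.00176) at 6 h and did not pass the test at 24 or 72 h. TOLLIP, an adaptor of Toll-like receptor signalling on the far side of MUC5B, rose from 19.2 ± 3.11 to 41.2 ± 1.23 CPM by 6 h (edgeR adjusted p = 6.74e-06) and was still up by 1.13 log2 units at 72 h (SE 0.13, adjusted p = 5.29e-06). Of all changes of these 3 neighbours against 0 h, the largest was 1.23 log2 units (TOLLIP at 48 h).

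**Figure D3:**
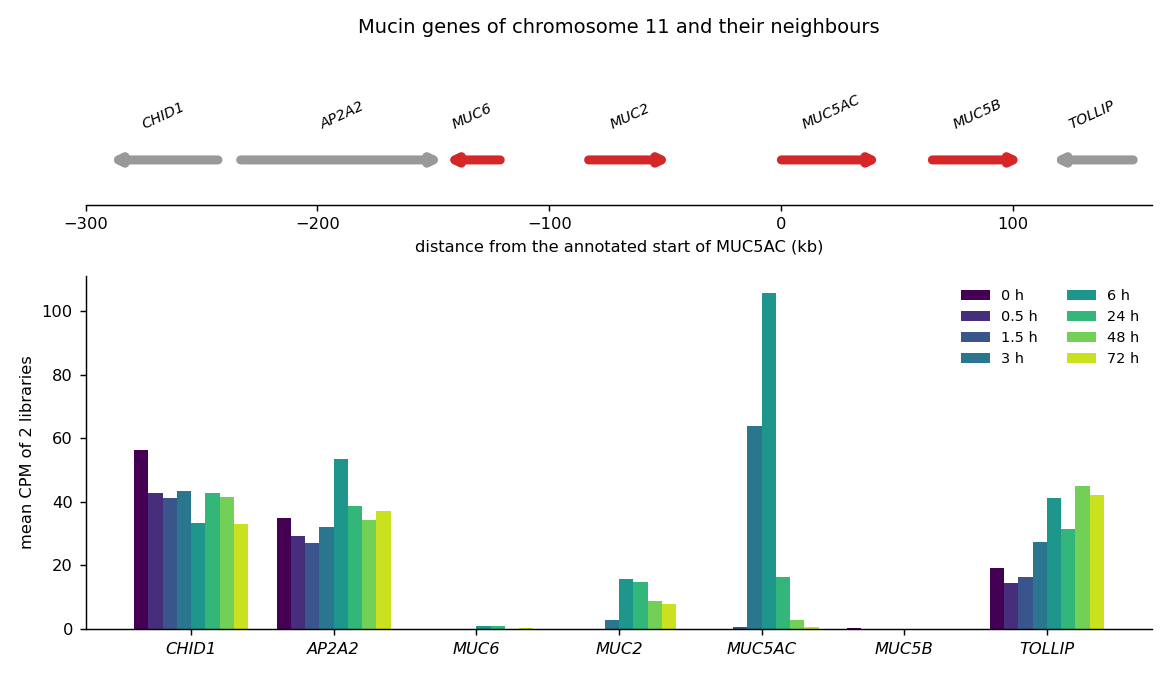
Top, genes of the chromosome 11 mucin cluster (red) and flanking genes (grey) by distance in kb from the start of MUC5AC, with arrows in the direction of transcription. Bottom, mean CPM of 2 libraries at 8 times (bars, linear axis from 0): CHID1, AP2A2 and TOLLIP have reads at all times, whereas MUC5AC and MUC2 appear from 3 h and MUC5B stays at most at 0.159 CPM.

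MUC16 (ENSG00000181143, chr19:8848844-8981342, minus strand), a very large membrane mucin whose shed form is the tumour antigen CA125, was the late member. Its 6 libraries up to 1.5 h held 1 read in total, and those of 3 h held 3 and 1. Reads then numbered 7 and 9 (6 h), 57 and 79 (24 h), 442 and 490 (48 h), and 949 and 1019 (72 h). Each pair from 3 h onward lay wholly above that of the preceding time.

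Against the same floor, mean MUC16 CPM was at least 3.27-fold higher than at 0 h at 6 h, at least 18.4-fold at 24 h, at least 144-fold at 48 h and at least 309-fold at 72 h. At 3 h both libraries were at or under the floor, and no fold is given there. From 6 to 24 h the fitted difference was 2.47 log2 units (SE 0.30), and 0.84 with limma on log2(TPM + 0.1). No p is given there, since MUC16 had 7 and 9 reads at 6 h and passed the filter through later, higher times. From 24 to 48 h it rose by 2.97 (SE 0.21, adjusted p = 4.55e-06), where 15% were called. From 48 to 72 h it rose by 1.102 (SE 0.18, adjusted p = 0.0144), a step at which 1.47% of all genes were called. That last call was lost without the first 48 h library (edgeR adjusted p = 0.195), without the second (0.201), without the second 72 h library (0.0810), with counts derived from TPM (0.132) and with limma on log2(TPM + 0.1) (0.112), with a difference between 0.96 and 1.38 in these fits. The 43816-base transcript MUC16-201 held 83.4 to 88.4% of the gene's reads at 48 and 72 h, and shorter transcripts held the rest but most of the TPM. At 72 h the TPM of MUC16 was 63.5 and 41.6 times that of MUC5AC when summed over transcripts, and 19.5 and 12.96 times for MUC16-201 alone.

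MUC20 (ENSG00000176945, chr3:195720882-195741123, plus strand), a membrane mucin known to bind the receptor MET, rose early and was the 1 of the 6 other mucins called at 1.5 h. Reads were 20.1 and 13 (0 h), 14.6 and 22.5 (0.5 h), 70.6 and 73 (1.5 h), 179.6 and 199.6 (3 h) and 241 and 310 (6 h). Later they were 158 and 278 (24 h), 229.8 and 279 (48 h), and 320.2 and 294 (72 h). In CPM, both libraries from 1.5 h onward lay above all 4 of 0 and 0.5 h.

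The difference of MUC20 from 0 h was 2.00 log2 units (SE 0.26, edgeR adjusted p = 2.19e-04) at 1.5 h, 4.35 (SE 0.25, adjusted p = 4.24e-09) at 6 h and 4.12 (SE 0.25, adjusted p = 6.76e-09) at 72 h. It rose by 1.98 (SE 0.26, edgeR adjusted p = 2.80e-04) from 0.5 to 1.5 h, where 5.77% of all genes were called, and by 1.46 (SE 0.21, adjusted p = 1.43e-04) from 1.5 to 3 h, where 25.1% were called. From 6 to 24 h it fell by 0.97 (SE 0.20, edgeR adjusted p = 8.99e-04), and neither later step passed the test. With counts derived from TPM, these 3 steps were not called (edgeR adjusted p = 0.496, 0.685 and 0.351, in that order), nor with limma on log2(TPM + 0.1), where they were 1.46 (adjusted p = 0.387), 0.35 (0.844) and -0.48 (0.656). Per length the rise was much smaller. Mean TPM was 1.22 ± 0.610 (SD, n = 2) at 0 h and 3.87 ± 0.178 at 72 h, and limma gave 1.67 at 72 h on its scale (adjusted p = 0.0884). The calls against 0 h at 1.5, 3, 24 and 48 h were also lost with both. That at 6 h was lost with limma, which gave 1.56 (adjusted p = 0.107). At 0 h the 521-base transcript MUC20-202 held 48.1 and 39.5% of the gene's reads, while the 5053-base MUC20-203 held 97.6 and 97.4% at 72 h. With MUC20-203 counted alone, the difference from 0 h at 6 h was 5.25 (edgeR adjusted p = 2.40e-10). The neighbouring pseudogene SMBD1P had a different course: it was higher by 1.91 at 3 h (SE 0.28, edgeR adjusted p = 9.54e-05) and did not pass the test at 6 h.

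MUC1 (ENSG00000185499, chr1:155185824-155192916, minus strand), the widely expressed membrane mucin, was the member that fell. Reads were 471 and 766 (0 h), 443 and 428 (0.5 h), 482 and 480 (1.5 h), and 532 and 379 (3 h). Later they were 89 and 134 (6 h), 167 and 297 (24 h), 180 and 202 (48 h), and 118 and 221 (72 h). In CPM, all 8 libraries from 6 h onward lay between 3.29 and 6.90, below all 8 up to 3 h, which lay between 11.7 and 24.6.

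MUC1 had not changed beyond the test at 3 h (-0.54, SE 0.28, edgeR adjusted p = 0.141), but this depended on the processing. It was called lower at 3 h with scaling to total counts (-0.82, edgeR adjusted p = 0.0294), with no filter on low counts (adjusted p = 0.0116), without the first 0 h library (-0.87, adjusted p = 0.0249) and without either 72 h library (adjusted p = 0.0486 and 0.0485). Leaving out 1 library moved it between -0.869 and -0.103. At 0.5 h it was called with no filter (adjusted p = 0.00720), and at 0.5 and 1.5 h without the first 0 h library (adjusted p = 0.0250 and 0.0444). From 3 to 6 h it fell by 1.65 log2 units (SE 0.30, edgeR adjusted p = 5.07e-04), and no other step passed the test. Against 0 h the difference was -2.19 (SE 0.30, edgeR adjusted p = 2.40e-05) at 6 h and -1.94 (SE 0.29, adjusted p = 5.89e-05) at 72 h. The 2 libraries of 0 h stood apart from each other, at 14.5 and 24.6 CPM. They had like numbers of reads on the 1811-base MUC1-228 (193 and 181) and unlike numbers on the 4170-base MUC1-223 (235 and 542), the transcript with the repeats and a GC content of 71.2%, and the reason was not tested. Leaving out either 0 h library, or any other, moved the difference at 6 h between -1.76 and -2.52. The transcript estimates of MUC1 were unstable at low depth: at 6 h MUC1-228 held 47 reads in 1 library and 0 in the other, where MUC1-225 held 29.6.

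**Figure D4:**
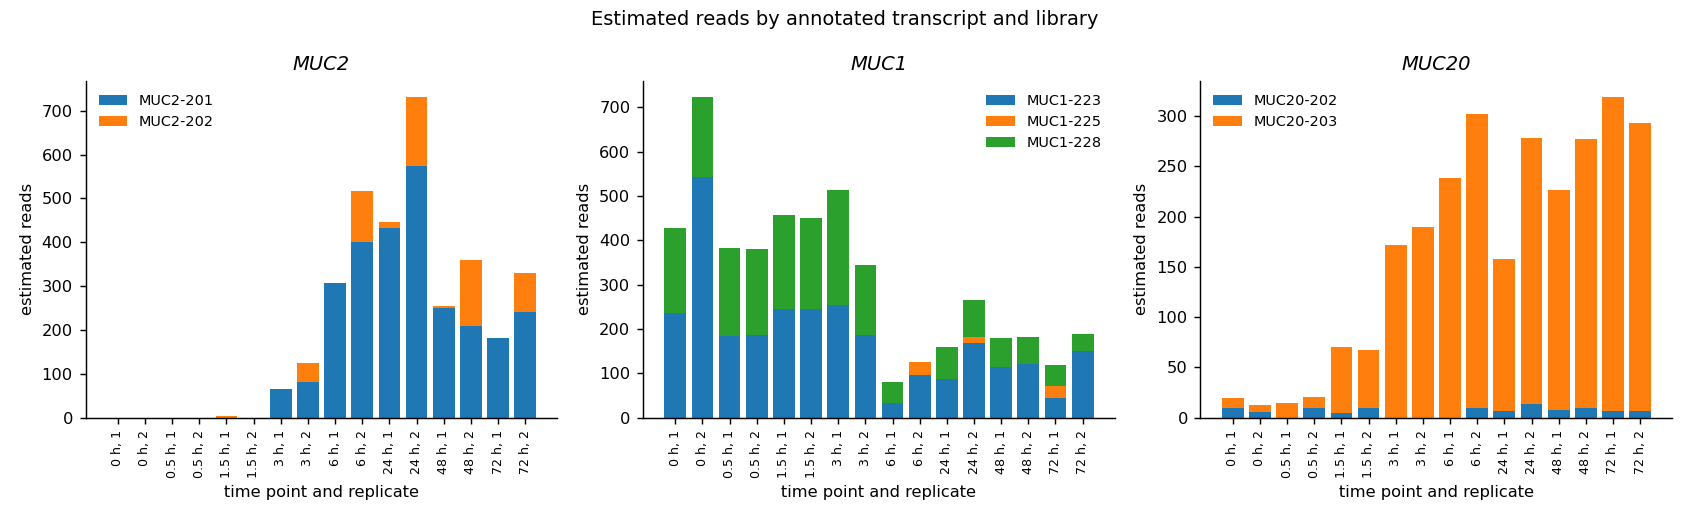
Estimated reads (linear axes from 0) by annotated transcript in each of the 16 libraries for MUC2, MUC1 and MUC20, labelled by time and replicate; transcripts with at least 10% of the gene's reads at a time point are drawn. MUC2-202 takes 21.6 to 41.9% of MUC2 reads in the second libraries from 3 h and at most 3.3% in the first, and the 0 h libraries of MUC1 differ in MUC1-223.

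In levels per length, the order of the 7 genes changed between the start, the peak of MUC5AC and the end. At 0 h MUC1 stood first with 13.9 ± 1.35 TPM (SD, n = 2), followed by MUC20 with 1.22 ± 0.610, and the others were at 0 or under 0.1 TPM. At 6 h the order was MUC5AC with 7.04 ± 0.672 TPM, MUC20 with 3.66 ± 0.981, MUC1 with 3.08 ± 1.41, MUC2 with 1.75 ± 0.650 and MUC6 with 0.151 ± 0.0496. MUC20 and MUC1 did not differ beyond their spread there. At 72 h the values were 6.00 ± 5.07 TPM for MUC1, 3.87 ± 0.178 for MUC20, 2.73 ± 0.345 for MUC16 and 1.22 ± 0.857 for MUC2, and the spread of MUC1 covered the other 3. The place of MUC16 above MUC2 rests on short transcripts, since MUC16-201 alone was at 0.846 ± 0.114 TPM and MUC2-201 alone at 0.769 ± 0.213.

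The 250 bases before the RefSeq start (GRCh38.p14) are shown for a member that appeared after PMA and for the member that fell. Capitals mark matches, on either strand, to TGANTCA (the AP-1 motif, bound by FOS and JUN family factors, which PMA is known to activate), to GGGCGG (the GC box) and to TATAA.
MUC2, chr11:1074624-1074873, plus strand: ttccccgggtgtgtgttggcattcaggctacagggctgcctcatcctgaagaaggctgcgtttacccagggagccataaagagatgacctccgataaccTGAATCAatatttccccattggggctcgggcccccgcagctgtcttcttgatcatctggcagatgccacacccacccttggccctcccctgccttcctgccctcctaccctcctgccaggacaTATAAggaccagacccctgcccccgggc
MUC1, chr1:155192916-155193165, minus strand: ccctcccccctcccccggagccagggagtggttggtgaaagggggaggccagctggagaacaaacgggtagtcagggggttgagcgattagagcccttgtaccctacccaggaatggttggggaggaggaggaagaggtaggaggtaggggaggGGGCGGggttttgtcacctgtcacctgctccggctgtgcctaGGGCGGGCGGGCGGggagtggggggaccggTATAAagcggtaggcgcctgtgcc
The MUC2 window held 1 match to the loose AP-1 motif, with A at its centre rather than C or G, 1 TATAA and no GC box. The MUC1 window held 4 GC boxes, 3 of which overlap, 1 TATAA and no AP-1 match. Among all 35116 windows of this length, 6.6% held the loose AP-1 motif, 42.6% the GC box and 18.9% TATAA. A match describes these letters only. Windows for MUC5AC, MUC5B, MUC6 and MUC20 were not analysed here, and those for MUC16 lie upstream of the gene start used for counting.

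Genes whose mean log2 CPM over the 8 times correlated best with that of a mucin, among 14262 genes whose mean was 1 CPM or more, are given as a description. The libraries, the depth and the 8 time points are shared by all of them. For MUC5AC these were CD53 (a tetraspanin of leukocytes, r = 0.986), HDLBP, GNAS, STK40 and HSP90AB1, all of which were already expressed at 0 h. CD53, for example, was at 111 CPM before PMA, 183 CPM after 6 h and 122 CPM after 72 h, so the shape was alike and the amplitude was not. For MUC2 they were CAPN2 (a calpain protease, r = 0.999), WSB2, CORO1C, IL6R and CITED1. IL6R, the interleukin 6 receptor, was at 3.01 CPM before PMA, 103 CPM after 6 h and 42.6 CPM after 72 h. For MUC16 they were TMEM233, PTPRE, ATP2B2, SLAMF7 and EFL1P1, for MUC20 CREM, MT2A, CPEB4, CYP19A1 and TPM4, and for MUC1 NAT8L, GRAMD1A, INPP5J, BRME1 and EIF4EBP1. For MUC6, with 11 of 16 libraries at or under 3 reads, the best value was 0.951 (SLC35D2), followed by CCL4, MLC1, PPP3CC and ATG14. Between the mucins, r was 0.691 for MUC5AC and MUC2, 0.913 for MUC2 and MUC20, -0.104 for MUC5AC and MUC16, and -0.899 for MUC2 and MUC1.

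Other mucin and mucin-like genes also changed, mostly late. Of 21 listed, 16 were tested, and 11 were higher and 1 lower at 72 h (68.8 and 6.2%, beside 31.7 and 26.9% of all tested genes), with a median difference of 1.38 against -0.03 for all tested genes. Among the 11, MUC12, MUC13, MUC17 and PARM1 had at most 2 reads in either 0 h library and passed the filter through later times. They could only be called higher, so these shares and the median support nothing on the list. MUC12 is a membrane mucin of the colon and had the largest called rise among members of the list with a mean of 1 CPM or more. It held 0 and 2 reads before PMA and 251 and 470 after 24 h. At 72 h it was at 7.06 CPM but 32.3 TPM, and the transcripts behind this were not examined. CD164, a sialomucin of blood progenitors and the member with the highest mean, rose by 1.51 (SE 0.22, edgeR adjusted p = 4.16e-05) at 72 h. MUC19, a gel-forming mucin outside the cluster, fell from 71.1 ± 1.24 CPM before PMA to 3.52 ± 0.721 CPM after 72 h, a difference of -4.34 (SE 0.22, edgeR adjusted p = 8.84e-10). MUC4, the membrane mucin next to MUC20, was at 0.376 CPM before PMA and 0.0265 CPM after 24 h (edgeR adjusted p = 0.00887), with at most 25.2 reads in any library. At 6 h 6 of the 16 were higher and 1 lower (37.5 and 6.2%, beside 27.8 and 29.4% of all). When libraries were scaled to total counts, which moved the median of all genes at 6 h to -0.35, 2 were higher and 2 lower at 6 h, and 11 were higher and 2 lower at 72 h.

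**Figure D5:**
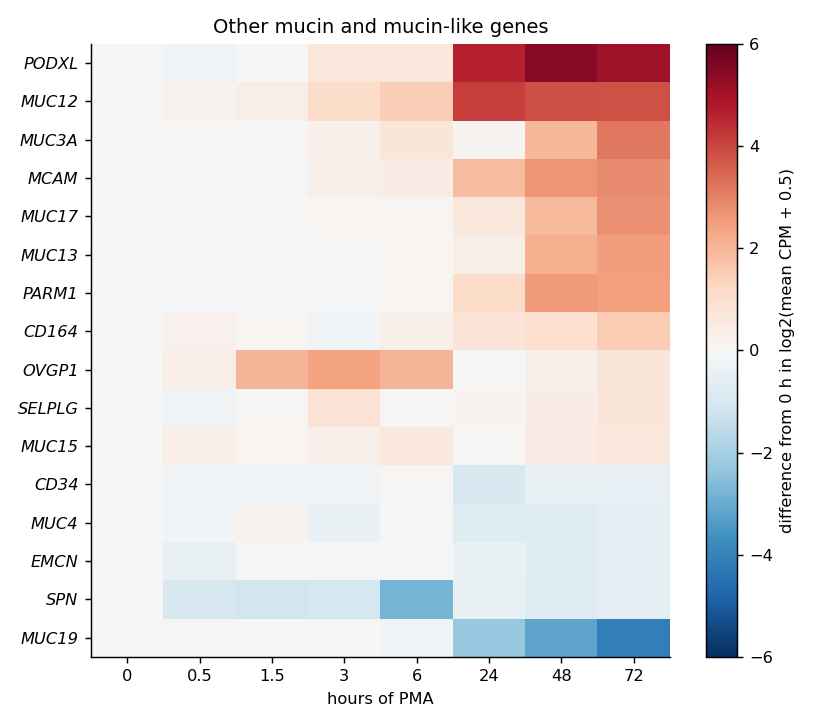
Difference from 0 h in log2(mean CPM + 0.5) for the 16 tested other mucin and mucin-like genes at 8 times, red for higher and blue for lower. Most rises (PODXL, MUC12, MUC3A, MCAM, MUC17, MUC13, PARM1) appear at 24 to 72 h, OVGP1 is high from 1.5 to 6 h, and MUC19 falls from 24 h.

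Enzymes that build O-linked sugars on mucins were called in shares near those of all genes at 6 h. Of 32 listed, 27 were tested, with 9 higher and 10 lower at 6 h (33.3 and 37.0%, beside 27.8 and 29.4% of all tested genes; median 0.03). At 72 h 13 were higher and 5 lower (48.1 and 18.5%, beside 31.7 and 26.9% of all; median 0.41, against -0.03 for all genes). Under scaling to total counts the split was 3 higher and 12 lower at 6 h, and 11 higher and 8 lower at 72 h. GALNT6, which attaches the first sugar, rose by 3.03 (SE 0.10, edgeR adjusted p = 1.09e-11) at 72 h, from 14.1 to 115 CPM. ST6GALNAC1, which caps it with sialic acid, was already called lower at 1.5 h (-0.37, SE 0.10, edgeR adjusted p = 0.0241). It fell from 94.1 ± 7.72 CPM before PMA to 3.40 ± 0.383 CPM after 24 h (edgeR adjusted p = 1.91e-12). ST3GAL2, a sialyltransferase with the highest mean of the list, was higher by 0.41 (SE 0.10, edgeR adjusted p = 0.00305) at 24 h.

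Genes for the folding, packing and release of secreted mucins did not rise with MUC5AC as a list. Of 29 listed, 19 were tested, and at 6 h 3 were higher and 10 lower (15.8 and 52.6%, beside 27.8 and 29.4% of all tested genes; median -0.56). At 72 h 7 were higher and 6 lower (36.8 and 31.6%, beside 31.7 and 26.9% of all; median -0.18). Scaling to total counts gave 2 higher and 13 lower at 6 h, and 4 higher and 9 lower at 72 h. MARCKS, the protein kinase C substrate that links mucin granules to the cytoskeleton, fell from 13.1 ± 3.45 CPM before PMA to 0.803 ± 0.0504 CPM after 24 h, a difference of -4.03 (SE 0.23, edgeR adjusted p = 3.61e-09). STXBP5, the member with the highest mean, had 366 CPM before PMA and 350 CPM after 6 h (difference -0.07, SE 0.14, adjusted p = 0.716). AGR2, the disulfide isomerase needed to fold intestinal MUC2, had at most 1 read in any library, and AGR3 and P2RY2 had none.

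Genes known to regulate MUC5AC in airway epithelium were mostly higher. Of 36 listed, 33 were tested, and 23 were higher and 4 lower both at 6 h (median 1.06) and at 72 h (median 0.90). That is 69.7% higher and 12.1% lower, beside 27.8 and 29.4% of all tested genes at 6 h and 31.7 and 26.9% at 72 h. The list holds genes such as EGFR, with no reads at 0 h, that could only be called higher. It was also chosen with earlier results of these data known, so the shares are a description only. CXCL8 (interleukin 8), with the highest mean, had 5.402 ± 0.951 CPM before PMA, 1462 ± 4.84 CPM after 6 h and 11.7 ± 2.24 CPM after 72 h. EGFR, the receptor through which many irritants induce MUC5AC, had no reads at 0 h, 0.628 ± 0.163 CPM after 6 h and 16.1 ± 0.240 CPM after 72 h. The part of EGFR or of any other listed gene in the level of MUC5AC was not tested. ERBB3, a partner receptor, fell by 2.16 (SE 0.11, edgeR adjusted p = 1.27e-09) at 6 h. TNF had no reads and TGFA at most 2.

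Markers of other cell types were measured beside the mucins. Of 21 epithelial and goblet cell markers in the tables, 10 to 12 were above 3 reads in both libraries at any time, and their summed CPM was 556 and 673 in the 0 h libraries, 1785 and 1873 in those of 6 h, and 3122 and 3284 in those of 72 h. Most of that sum was from keratins: KRT8 alone had 261 CPM before PMA, 816 CPM after 6 h and 1940 CPM after 72 h. EPCAM, an epithelial adhesion protein, had 44.9 ± 6.20 CPM before PMA, 82.6 ± 0.872 CPM after 6 h, its highest mean and the time of the MUC5AC peak, and 17.8 ± 1.83 CPM after 72 h (difference at 6 h 0.88, SE 0.12, edgeR adjusted p = 2.00e-05). KRT18, KRT19, CLDN7, CDH1 and ELF3 were also above the floor before PMA. Other genes of goblet and secretory cells were at or near 0: ATOH1, CDX2 and SCGB1A1 had no reads in any library, AGR2 at most 1, and SPDEF and TFF3 at most 10. The summed CPM of 12 megakaryocyte markers was 70.1 and 104.9 in the 0 h libraries, 276 and 292 in those of 6 h, and 5462 and 6212 in those of 72 h, most of it from THBS1 (4592 CPM at 72 h), with PF4 and GP9 at no more than 1 read. That of 10 monocyte and macrophage markers was 146 and 167 in the 0 h libraries and 348 and 395 in those of 72 h. Single markers went both ways. Among 10 tested epithelial and goblet cell markers, 5 were called higher and 3 lower at 6 h, and 3 higher and 4 lower at 72 h. Among 8 tested megakaryocyte markers, 4 were higher and 2 lower at 24 h, and 6 higher and 0 lower at 72 h. Among 10 monocyte and macrophage markers, 4 were higher and 2 lower at 72 h. Of all tested genes, 27.8% were called higher and 29.4% lower at 6 h, and 31.7% higher and 26.9% lower at 72 h. At 24 h 58.3% of all tested genes were called in either direction. MUC16 and the summed megakaryocyte and monocyte markers were highest at 72 h. The epithelial sum was highest at 48 h (3374 and 3549 CPM) and MUC5AC at 6 h. No correlation of a mucin with these sums was computed. EPCAM, a single member of its list, shared only its time of highest mean with MUC5AC. The part of these markers in the mucin values was not tested. In bulk RNA, more cells with mucin RNA and more mucin RNA per cell cannot be told apart.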

How the data were processed

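RNA-seq of 16 K562 libraries was used as deposited, as 1 table per library of 177456 transcripts with an estimated (expected) count and a TPM value. Per the submitters' processing notes, reads were trimmed with Trim Galore 0.4.3 and quantified with Salmon; its version, the build of the transcripts and whether counting used strand are not given in the sources used here, so reads of overlapping antisense genes may not be separated. Deposited estimated counts carry no normalization, and the authors' TPM values are relative to the library and transcript length. Transcripts were assigned to genes with GENCODE 29 (GRCh38); 94.1% matched, and the rest held 3.01 to 3.75% of reads. Counts were summed per gene and rounded. The tests used edgeR 4.0.16 (R 4.3.3): TMM factors 0.854 to 1.139, filterByExpr, 1 fit of all 8 times (common biological coefficient of variation 0.123) and prior count 0.125. Alternatives, including DESeq2 1.42.0 and limma 3.58.1 on log2(TPM + 0.1), are described under the processing section. The code of the test was also run on simulated counts, and the outcome is not given here and lends no support to the p-values. An exact permutation test of 2 against 2 libraries cannot reach 0.05, so single genes rest on the pooled spread; no SE is given where a group is at 0. The members and lists were chosen with earlier results of these data known. From each list the text names the highest mean and the largest called rise and fall among genes whose mean was 1 CPM or more, and members at no more than 3 reads, except 1 item not reported here; the markers SPDEF and TFF3, EPCAM, KRT8 and the other expressed epithelial genes, THBS1, MUC4 as a neighbour, and the genes read off the heatmap of other mucins were named besides.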

Additional observations from a re-analysis of the deposited data

How the results depend on the processing

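The 4 steps of MUC5AC kept their direction under every alternative run. The difference from 3 to 6 h was 0.64 with limma on log2(TPM + 0.1), and 0.55 to 0.92 when 1 library was left out. That from 48 to 72 h was -2.16 when only the libraries of those 2 times were fitted and -1.14 with limma, and it ranged from -2.64 to -1.78 when 1 library was left out. The cause of the smaller values was not tested. The number of the 6 other mucins called at 0.5 h was 1 without a filter on low counts and 0 to 1 when 1 library was left out. At 1.5 h it was 0 with counts derived from TPM, 0 with limma, and 1 to 2 when 1 library was left out. At 3 h it was 1 with counts derived from TPM and 1 with limma. With limma it was 3 at 6 h and 3 at 72 h.

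Differences that changed sign had not passed the main test. With libraries scaled to total counts these were MUC1 from 24 to 48 h (0.027) and MUC2 from 6 to 24 h (0.034). With counts derived from TPM they were MUC1 from 48 to 72 h (0.51) and MUC20 at 0.5 h (-0.39). With limma they were MUC1 from 48 to 72 h (0.27), MUC2 from 6 to 24 h (0.19), MUC6 from 6 to 24 h (0.022) and MUC20 at 0.5 h (-0.92). With 1 library left out, the range was -0.169 to 0.073 for MUC1 from 1.5 to 3 h, -0.152 to 0.080 from 24 to 48 h and -0.757 to 0.311 from 48 to 72 h. It was -0.324 to 0.159 for MUC2 from 6 to 24 h and -0.810 to 0.211 from 48 to 72 h, -0.884 to 0.351 for MUC6 from 6 to 24 h, and -0.380 to 0.351 for MUC20 at 0.5 h.

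The calls of MUC20 at 1.5, 3, 24 and 48 h, and at the step from 3 to 6 h, were lost with counts derived from TPM and with limma. Those at 6 and 72 h were lost with limma. The replicate number as a block changed 1 call of the mucins, MUC6 at 72 h, and the MUC5AC step from 3 to 6 h was 0.72 with that block. The call of MUC6 at 72 h was also lost with scaling to total counts, with limma, and without either library of 0, 6 or 24 h. Leaving out 1 library moved that difference between 0 and 7.73, with 0 reached without the first 72 h library. The call of MUC6 at 24 h was lost without the second 24 h library. With the DESeq2 Wald test MUC6 was not called at 6, 24 or 72 h. The labels give no pairing, and the difference between the 2 replicates correlated by -0.191 to 0.289 over all 28 pairs of time points (-0.108 to 0.286 over the 21 pairs of treated times). MUC2 and MUC20 from their main transcript alone, the TPM of single transcripts, and the counts of the lists under each alternative, were added after seeing the data. Depth limits MUC5B, at or under 3 reads in 15 of 16 libraries, and MUC6, with 0 in 11.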

Other observations

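Membrane mucins outside the 7 genes were also induced late. These 3 were chosen after their values were seen. MUC3A held 20 and 31 reads (0 h), 24 and 54 (24 h), 144 and 178 (48 h), and 287 and 463 (72 h). MUC17 held 0 and 1 reads (0 h), 6 and 23 (24 h), and 74 and 125 (72 h). MUC13 held none at 0 h, then 4 and 8 reads (24 h), and 75 and 82 (72 h). Both libraries of each gene at 72 h lay above all libraries of 24 h and earlier.

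Among the genes known to regulate MUC5AC in epithelium, AREG and HBEGF, ligands of the EGF receptor, were also picked after their values were seen. AREG had 4.47 ± 0.405 CPM (SD, n = 2) before PMA, 126 ± 5.89 CPM after 3 h, 454 ± 13.8 CPM after 6 h and 17.3 ± 1.48 CPM after 72 h. HBEGF had 1.12 ± 0.326 CPM before PMA, 41.3 ± 2.47 CPM after 6 h and 15.6 ± 1.45 CPM after 72 h. Both had their highest mean at 6 h, as did MUC5AC, MUC2, MUC6, MUC20 and CXCL8. The share of all genes with their highest mean at 6 h was not counted, and no link between these genes was tested.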
